A study of Drosophila melanogaster with 3 samples.

Results

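The genes described here are 43 Drosophila melanogaster genes of muscle, a chosen list out of 13945 protein-coding genes, set against the binding sites of the protein CG12071 in late embryos. By role, 19 genes encode sarcomere proteins, 3 encode integrins that attach muscles, 4 encode adhesion proteins of myoblast fusion, 1 encodes an RNA-binding regulator (how) and 16 encode transcription factors of the mesoderm and its muscles. The sarcomere, attachment and fusion genes together, 26 genes, are called structural genes below, and how belongs to neither side of that comparison. The genes were listed by name, and the rule used no measured value, but the list was made with earlier results of these data known.

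The material was 1 group of whole embryos of mixed sex, collected at 12 to 24 hours, from a transgenic fly line that carries CG12071 with GFP fused to its C-terminus. Chromatin was immunoprecipitated and sequenced (ChIP-seq, in which DNA bound by a protein is pulled down and its reads pile up into peaks) from 3 separately numbered biological replicates, and 1 control served for all peak calls. The sample descriptions call the libraries an input control while the antibody field names CG12071, and the peaks were taken as those of the tagged protein. Whole embryos mix all cell types, muscle among them, so a peak cannot be assigned to a tissue, and binding in few cells and weak binding in many cannot be told apart. With no untreated or mutant group, no condition could be compared. The files hold peaks and no expression values, so no marker level was checked.

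In the fly embryo, mesoderm transcription factors set the fate and identity of muscle precursors, founder cells fuse with fusion-competent myoblasts into muscle fibres, and the fibres then switch on actin, myosin and their regulators to build sarcomeres. Integrins anchor the fibre ends to tendon cells of the epidermis. The collection window covers the time when fusion ends and sarcomeres and attachments form.

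Binding was read from 5 deposited lists. The thresholded list held 4261 peaks that passed the authors' irreproducible discovery rate (IDR) threshold, a test of whether peaks keep their order between replicates, and the pooled list and those of the 3 replicates each held 30000 entries, weak background included. All 4261 thresholded peaks were also the strongest 4261 entries of the pooled list. The numbers of entries with a q-value of 0.05 or less were 10242 in the pooled list, 13828 in replicate 1, 12616 in replicate 2 and 4015 in replicate 3, the lowest. Read depth is unknown here. A rank counts entries of 1 list from the strongest signal value, the authors' own score for a peak, so rank 1 is the strongest. A peak was given to a gene as a promoter peak when its summit, the position of highest signal, lay within 500 bp of any transcription start site (TSS) of the gene, and as a body peak when it lay elsewhere between the ends of the gene.

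Of the 43 muscle genes, 7 had a promoter peak in the thresholded list: sls, Zasp52, if (2 peaks), mew, mys, tin and lbe. Body peaks lay in 9 genes: Zasp52, TpnC73F, Prm, if, mew, kirre, how, Mef2 and twi. Together 13 genes held 37 distinct peaks, 8 at promoters and 29 in bodies, and 30 genes held none. The sequences around the summits of 11 of these peaks carry the description that follows, 7 at promoters and 4 in bodies. They are given 5′ to 3′ on the plus strand of dm6, from the RefSeq copy of release 6, with up to 50 bp on either side of the summit and with annotated untranslated regions left out. At mys and lbe this left out the summit itself, so those windows lie beside it. Capitals mark AATATTTG or ACACTG on either strand, letters that were chosen after the most frequent runs in all thresholded peaks had been counted. The windows are chr3L:2115826-2115926 at sls, chrX:16781231-16781331 and chrX:16782230-16782330 at if, chrX:13257184-13257270 at mew, chrX:8061598-8061644 at mys, chr3R:21378768-21378868 at tin and chr3R:21446538-21446579 at lbe, all at promoters. The body windows are chrX:13251466-13251566 in mew, chr3R:22067393-22067493 in how, and chrX:2744192-2744292 and chrX:2787338-2787438 in kirre.
sls promoter: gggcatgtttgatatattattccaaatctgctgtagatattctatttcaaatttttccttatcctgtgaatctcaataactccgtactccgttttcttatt
if promoter, stronger peak: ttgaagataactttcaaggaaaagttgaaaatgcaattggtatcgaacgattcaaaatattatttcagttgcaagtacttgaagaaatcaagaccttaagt
if promoter, weaker peak: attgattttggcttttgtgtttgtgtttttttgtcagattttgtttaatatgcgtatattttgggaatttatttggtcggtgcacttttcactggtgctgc
mew promoter: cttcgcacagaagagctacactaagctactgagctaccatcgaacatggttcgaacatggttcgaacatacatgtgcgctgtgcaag
mys promoter: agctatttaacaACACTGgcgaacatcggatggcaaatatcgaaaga
tin promoter: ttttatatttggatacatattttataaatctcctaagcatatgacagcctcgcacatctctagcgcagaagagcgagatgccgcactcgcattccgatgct
lbe promoter: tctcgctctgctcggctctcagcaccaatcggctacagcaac
mew body, strongest peak: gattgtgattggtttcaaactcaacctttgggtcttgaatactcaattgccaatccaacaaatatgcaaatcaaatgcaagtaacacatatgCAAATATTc
how body, weaker peak: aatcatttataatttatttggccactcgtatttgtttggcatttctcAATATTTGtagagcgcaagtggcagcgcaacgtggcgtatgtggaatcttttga
kirre body, strongest peak: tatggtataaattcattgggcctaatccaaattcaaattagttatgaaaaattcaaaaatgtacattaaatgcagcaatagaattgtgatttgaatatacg
kirre body, peak inside CG32795: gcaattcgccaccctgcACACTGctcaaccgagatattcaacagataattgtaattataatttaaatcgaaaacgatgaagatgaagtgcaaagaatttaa

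Most of the printed windows were rich in A and T. Over the summit and 50 bp on either side, the median GC content was 35.6% for the 37 muscle gene peaks and 38.6% for all 4261 thresholded peaks. Within 50 bp of the summit, ACACTG lay in 4 of the 37 peaks (10.8%), in Zasp52, mys, kirre and twi, beside 7.35% of all thresholded peaks and 3.22% of windows of the same width centred 300 bp away. The forkhead-type core GTAAACA lay in 3 (8.11%), 2 in Mef2 and 1 in Zasp52, beside 6.64% of all peaks and 2.42% of the shifted windows. AATATTTG lay in 2 (5.41%), in how and mew, beside 3.75% and 0.939%. All 3 were chosen after runs of letters in these same thresholded peaks had been counted. A share above that of the shifted windows therefore follows from the choice and shows nothing more. These letters were thus found at a few muscle gene peaks, and most of the 37 held none of the 3. The printed body windows were not a random choice and favoured peaks with AATATTTG or ACACTG, so they do not show how common these are. Over all 29 body peaks, AATATTTG lay in 2 (6.9%) and ACACTG in 3 (10.3%). The stronger body peak of how and those of TpnC73F, Prm and if, whose windows held neither, were not printed. Nor was any peak on arm 2R, which left out those of Mef2, Zasp52 and twi, among them the ACACTG peaks of Zasp52 and twi. The remaining body peaks of kirre and mew were not printed either.

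Sequence elements known from muscle regulation were also counted on both strands. The E-box CANNTG, the element that twist and nautilus proteins recognise, lay in 19 of the 37 peaks (51.4%), beside 41.2% of all thresholded peaks and 42.0% of the shifted windows. Within 25 bp it lay in 24.3%, beside 23.2% of all peaks, and within 100 bp in 67.6%, beside 64.6%, so the gap was small at both other widths. Both A/T-rich cores of the type bound by Mef2, TATTTTTA and TATTTATA, were in none of the 37 windows, beside 2.79% and 2.49% of all peaks. The letters CAAGTG, bound by NK-type homeodomain proteins such as tinman, lay in 3 peaks (8.11%), beside 6.36%. The GATA element GATAAG lay in 2 (5.41%), at the promoters of sls and Zasp52, beside 7.32%. The core of the GAGA element, GAGAG, lay in 4 (10.8%), beside 15.4%, CACACA in 5 (13.5%), beside 11.2%, and TATCGATA in none, beside 0.634%. A match says only that these letters stand in the window.

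The share of muscle genes with a promoter peak was 16.3% (7 of 43, Wilson 95% interval 8.12 to 30.0%), beside 13.4% of all protein-coding genes. The background lies inside that interval, which covers counting error only. Counting only thresholded peaks that both other replicates supported, 2 genes (sls and if) were left without replicate 1 (4.65%, beside 7.35% of all genes), 2 (sls and tin) without replicate 2 (4.65%, beside 7%) and 4 (sls, if, mew and mys) without replicate 3 (9.30%, beside 9.59%). Without replicate 1 or 2 the muscle share was below the background, and without replicate 3 next to it, on 2 to 4 genes. Over the whole list it was above the background. Read by number of TSSs, 4 of the 20 muscle genes with 1 TSS had a promoter peak (20.0%, beside 8.35% of such genes), namely sls, mys, tin and lbe. Among those with 2 TSSs it was mew alone, 1 of 8 (12.5%, beside 21.7%). Among those with 3 or more it was Zasp52 and if, 2 of 15 (13.3%, beside 40.3%). The muscle genes therefore stood above the background in the class with 1 TSS and below it in the classes with more, on counts of 1 to 4 genes.

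Body peaks were found in 9 of 43 muscle genes (20.9%, interval 11.4 to 35.2%), beside 8.27% of all genes, and a peak in either place in 13 (30.2%, interval 18.6 to 45.1%), beside 18.2%. Muscle genes are long, with a median length of 11355 bp beside 2166 bp for all protein-coding genes, and long genes hold more summits. Genes were put into 5 equal classes of length. In class 5, from 6458 bp up, 8 of 25 muscle genes had a body peak (32.0%), beside 33.6% of all genes of that class. The only other one was TpnC73F, 1 of 5 in class 3 (20.0%), beside 1.22%. None of 10 in class 4, the next shorter one, had a body peak, beside 5.81%, and none of 3 in class 2, beside 0.538%. Class 1, the shortest, held no muscle gene and had a background of 0.215%. Per 100 kb of gene, the muscle genes held 2.40 body summits beside 2.20 for all protein-coding genes, and 1.97 with kirre left out. Among genes of like length, the share of muscle genes with a body peak was thus near that of other genes.

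**Figure D1:**
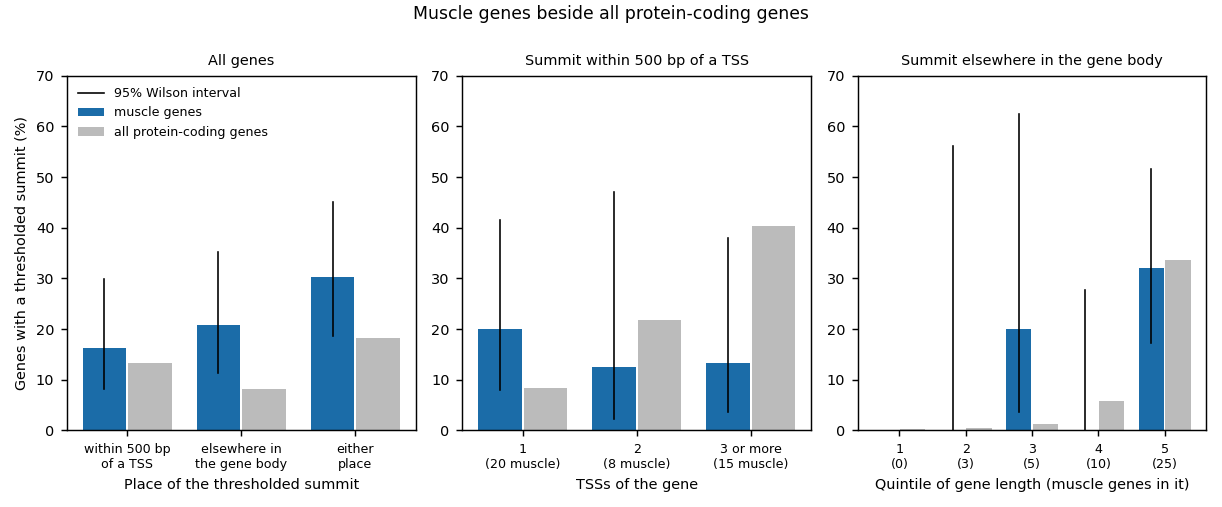
Share of genes, in percent, with a thresholded summit, for the muscle genes (blue, with 95% Wilson intervals as black lines) and all protein-coding genes (grey). The left panel splits by the place of the summit, the middle panel shows promoter summits by number of TSSs, and the right panel shows body summits by class of gene length from shortest (1) to longest (5). In class 5 the muscle genes, at 32.0%, stand next to all genes, at 33.6%.

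Structural genes and transcription factors were then set side by side. A promoter peak lay at 5 of 26 structural genes (19.2%) and at 2 of 16 transcription factors (12.5%), beside 13.4% of all genes. The difference of structural genes minus transcription factors was 6.73 percentage points. It became -0.96 points with 1 TSS per gene, and -2.40 points both with the strongest 2130 thresholded peaks and without replicate 2. A body peak lay in 6 structural genes (23.1%) and in 2 transcription factors (12.5%), beside 8.27% of all genes. Here the difference was 10.6 points, and it was 2.88 points without replicate 1 and 6.73 points without replicate 3. The median gene length was 11904 bp for structural genes and 7033 bp for transcription factors. In class 5 of gene length, the body counts were 5 of 16 structural genes (31.2%) and 2 of 8 transcription factors (25%). Both shares were below the 33.6% of all genes of that class. Per 100 kb, structural genes held 2.10 body summits, or 1.18 with kirre left out, and transcription factors 2.99. So the sign of the body difference depended on whether genes or summits per length were counted, and that of the promoter difference on 1 or 2 genes. No test was made, since genes are not replicates and were listed with results known.

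By role, all 3 attachment genes had a peak, as did how, the single RNA-binding regulator. Sarcomere genes had promoter peaks at 2 of 19 (10.5%), body peaks at 3 (15.8%) and either at 4 (21.1%). Of the fusion genes only kirre had a peak, in its body (1 of 4, 25%). The transcription factors had either kind at 4 of 16 (25%). Against the 18.2% of all genes, the sarcomere and transcription factor shares rest on 4 genes each.

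Promoter calls were fewest in replicate 3. Among the strongest 4261 entries of each replicate, muscle genes with a promoter summit numbered 8 in replicate 1 (18.6%, beside 15.6% of all genes), 6 in replicate 2 (14.0%, beside 14.2%) and 3 in replicate 3 (6.98%, beside 10.6%), on average 5.67 ± 2.52 (SD, n = 3). The share was above the background in replicate 1, next to it in replicate 2 and below it in replicate 3. Only sls and if were found in all 3, and for if no single peak was. Its stronger promoter peak ranked 8409 in replicate 1, and its weaker one had no entry within 100 bp in replicate 3. The promoters of Tm1 (replicates 1 and 2) and Mef2 (replicate 1) reached the strongest entries of a replicate but not the thresholded list. Structural genes had 6, 6 and 2 promoter calls in replicates 1, 2 and 3, and transcription factors 2, 0 and 1, so the shares averaged 18.0 ± 8.90% for structural genes and 6.25 ± 6.25% for transcription factors (SD, n = 3 each). The structural share was the higher one in all 3 replicates, though only slightly in replicate 3 (7.69% beside 6.25%). Muscle genes with a body summit numbered 8 in replicate 1 (18.6%, beside 7.82% of all genes), 11 in replicate 2 (25.6%, beside 8.28%) and 12 in replicate 3 (27.9%, beside 8.52%). From replicate to replicate the body share thus did not follow the promoter share, among muscle genes or among all genes.

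In the pooled list, which goes down to weak entries, 30 of 43 muscle genes had an entry at a promoter (69.8%), beside 36.7% of all genes. They were 22 of 26 structural genes (84.6%) and 7 of 16 transcription factors (43.8%), together with how. Counting only pooled entries with a q-value of 0.05 or less left 17 muscle genes (39.5%), beside 24.0% of all genes, with 13 of 26 structural genes (50%) and 4 of 16 transcription factors (25%). Weak promoter entries were thus common at muscle genes, and their share was higher among structural genes than among transcription factors, with no allowance for length or number of TSSs.

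**Figure D2:**
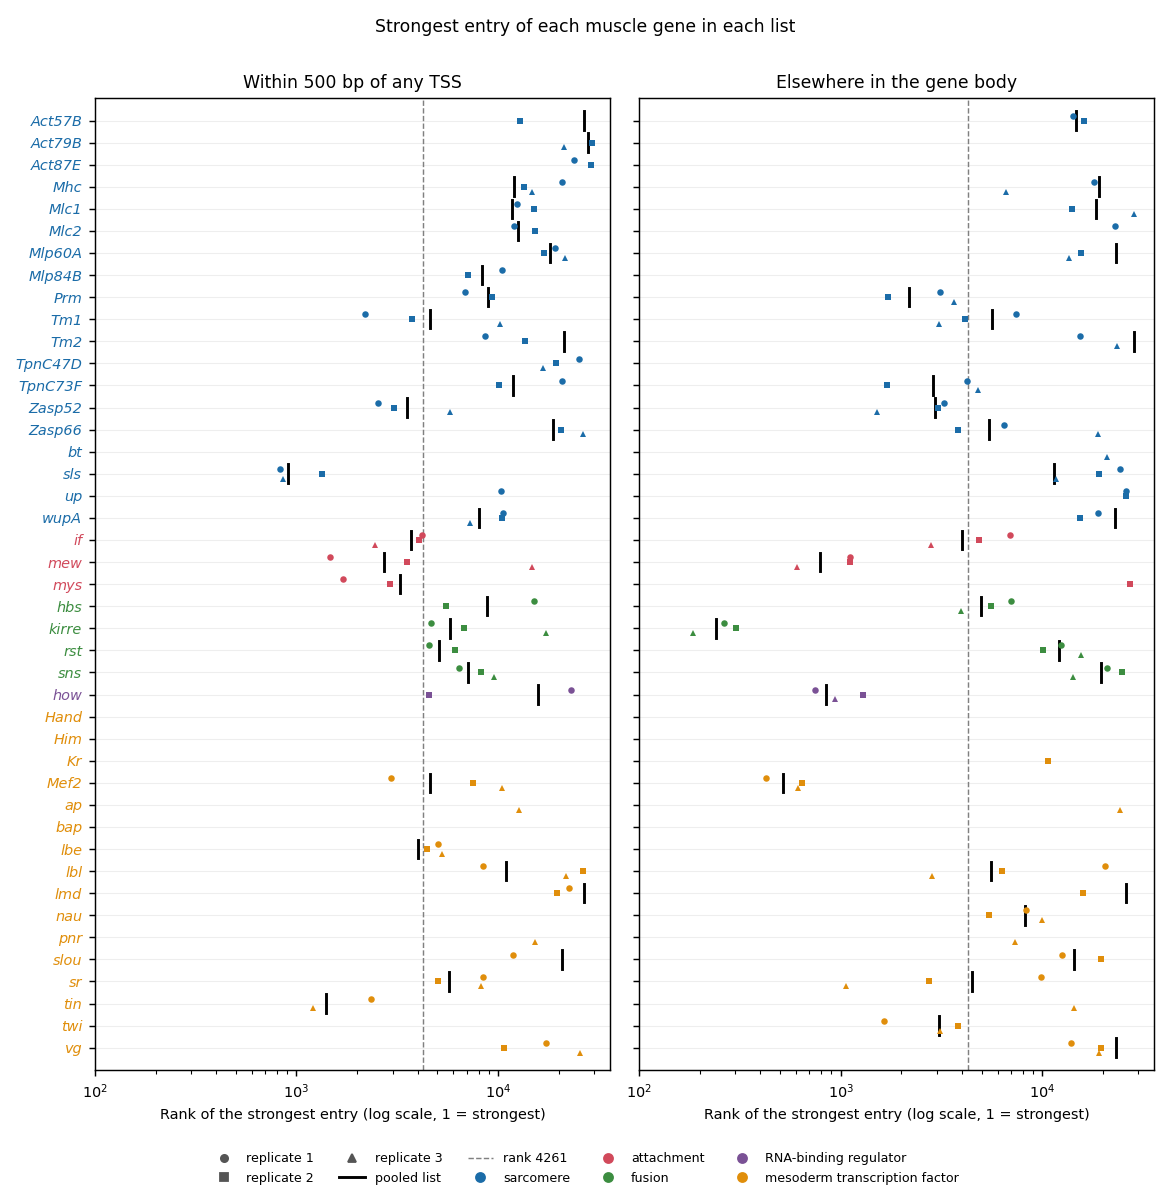
Rank of the strongest entry of each of the 43 muscle genes within 500 bp of any TSS (left) and elsewhere in the gene body (right), on a log axis from strong (left) to weak (right). Coloured symbols are replicates 1 (circle), 2 (square) and 3 (triangle), black bars are the pooled list, colours are roles, and the dashed line is rank 4261. Promoter entries of sls lie near rank 1000 in every list, body entries of kirre, Mef2, how and mew are near or stronger than that, and bap, Him and Hand have no entry.

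Among sarcomere genes, sls had the strongest promoter peak of the list. It encodes the titin-like protein of the fly, a giant elastic filament of the sarcomere. Its peak, chr3L:2115775-2115990, had its summit 265 bp upstream of the TSS and ranked 912 in the thresholded list. It ranked 827, 1346 and 861 in replicates 1, 2 and 3, on average 1011 ± 290 (SD, n = 3), so all 3 replicates placed it well inside their strongest 4261 entries. The nearest TSS of another protein-coding gene, zormin, was 35824 bp away.

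Zasp52, a PDZ and LIM protein of the Z-disc, had 1 peak at a promoter and 1 in its body. The promoter peak, chr2R:15817044-15817413, lay 225 bp upstream of a TSS and ranked 3527, with ranks of 8488, 3050 and 5761 in replicates 1, 2 and 3 (5766 ± 2719, SD, n = 3). The body peak, chr2R:15813254-15813623 in intron 1, ranked 2932 and was steadier, with ranks of 3241, 3026 and 3713 (3327 ± 351). The region is also spanned by the gene tun. A much stronger peak stood at the 3′ end of Zasp52, chr2R:15762321-15762580, outside the gene by its summit. It ranked 235, with 228, 182 and 355 in the replicates (255 ± 89.6), and the nearest TSS of any protein-coding gene was that of Zasp52 itself, 13602 bp away.

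TpnC73F and Prm each had 1 body peak and no promoter peak. TpnC73F encodes a troponin C, the calcium sensor of the thin filament, and its peak, chr3L:17047775-17048144, lay in intron 4, 1800 bp downstream of the nearest TSS of the gene and 1552 bp from that of rogdi. It ranked 2884, with 4251, 1689 and 4780 in the replicates (3573 ± 1653, SD, n = 3). Prm encodes paramyosin, the core of the thick filament of invertebrates, and its peak, chr3L:8741333-8741474 in intron 4, ranked 2180, with 3101, 1711 and 3643 (2818 ± 997). Both were strongest in replicate 2, and both had an entry in every replicate.

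The other 15 sarcomere genes had no thresholded peak. The closest was Tm1, a tropomyosin gene with 8 TSSs. Its strongest promoter entry ranked 4621 in the pooled list, and its best promoter entries ranked 2186, 3729 and 10253 in replicates 1, 2 and 3, not all at the same place. Zasp66, a second Z-disc protein gene, had a body entry at pooled rank 5461 (6483, 3829 and 20202 in the replicates). The promoter entry of wupA, which encodes troponin I, had pooled rank 8043 (10595, 15719 and 7278). Several other genes of the thick and thin filaments had weaker entries. The best promoter entries in the pooled list ranked 11944 for Mhc (myosin heavy chain), 11683 for Mlc1 and 12520 for Mlc2 (the myosin light chains), each past the 10242 entries with a q-value of 0.05 or less. The actin gene Act57B had a promoter entry at 26766 and a body entry at 14728, and Act79B had a promoter entry at 27941. Act87E, TpnC47D, up (troponin T) and bt (projectin) had no pooled entry, and bt, on the small chromosome 4, where 4 thresholded peaks lay, had none in replicates 1 and 2 either.

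Some of these genes had a thresholded peak nearby. Within 5 kb of 15 muscle genes (34.9%, beside 28.8% of all protein-coding genes), but outside the gene and its promoter window, lay 18 thresholded peaks. For 6 of them the nearest TSS was that of the muscle gene, and 8 lay within 500 bp of the TSS of another gene. Act57B had a peak 4070 bp upstream, chr2R:20939852-20940073, that ranked 737, with 722, 904 and 928 in the replicates (851 ± 113, SD, n = 3). Act87E had one at its 3′ end, 2090 bp from the nearest TSS of the gene, that ranked 1198 (1418, 1040 and 1835 in the replicates). TpnC47D had one 695 bp upstream that ranked 3665 (5315, 4119 and 4856). These 3 genes had no entry of such rank at a promoter or in the body, while the strong peak near Tm1, rank 284, stood 112 bp from the TSS of CG4338.

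The attachment genes were the one role with a promoter peak at every gene. They encode integrins, the receptors that join the muscle ends to the matrix at tendons: mys encodes the beta subunit, if an alpha subunit made in muscle, and mew an alpha subunit made in tendon cells. The mys peak, chrX:8061463-8061832, had its summit 3 bp downstream of the TSS, with an ACACTG upstream of the TSS in the printed window, and the TSS of fs(1)h lay 212 bp away. It ranked 3269, with 1707 and 2923 in replicates 1 and 2, and replicate 3 had no entry within 100 bp. The mew promoter peak, chrX:13257035-13257404, lay 37 bp upstream of a TSS and ranked 2706, with 1460 and 3523 in replicates 1 and 2 and again none within 100 bp in replicate 3. Both promoter peaks thus had entries in replicates 1 and 2 and none at that place in replicate 3.

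The gene if had 2 weak promoter peaks and 1 weak body peak. The first promoter peak, chrX:16781096-16781465, lay 207 bp upstream of a TSS and ranked 3715, with 8409, 4069 and 2455 in the replicates (4978 ± 3079, SD, n = 3). The second, chrX:16782095-16782464, lay 265 bp downstream of another TSS and ranked 4031, with 4192 and 4179 in replicates 1 and 2 and no entry within 100 bp in replicate 3. The body peak, chrX:16772858-16773227 in intron 2, ranked 3984, with 7651, 4841 and 2809 (5100.3 ± 2431). All 3 were near the end of the thresholded list, and the replicates disagreed on their order.

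The strongest peak of an attachment gene lay in the body of mew. That peak, chrX:13251423-13251622 in intron 1, was 5667 bp downstream of the nearest TSS of mew, ranked 789 and held the AATATTTG shown above. It ranked 1109, 1119 and 604 in the replicates (944 ± 294, SD, n = 3). A second, chrX:13232507-13232699 in intron 2, ranked 1800, with 2310, 2607 and 1185 (2034 ± 750.1), and the TSS of CG32639 lay 4006 bp from it. Both intron peaks of mew were supported in all 3 replicates, which its promoter peak was not.

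The fusion genes encode adhesion proteins of the immunoglobulin family on founder cells (kirre, rst) and on fusion-competent myoblasts (sns, hbs). No fusion gene had a promoter peak, and all 13 body peaks of the role lay in kirre, the longest of the muscle genes at 394149 bp. Of all protein-coding genes only sbb, with 14, had more body peaks, and bun had as many. Among the 83 protein-coding genes of 100 kb or more, 49 (59.0%) had a body peak, with a median of 1 peak a gene and of 0.988 per 100 kb, beside 3.30 per 100 kb in kirre. Of these 83 genes none had more body peaks than kirre, and 13 had more per 100 kb. So kirre stood out by number, in a gene with room for many peaks, and less by density.

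The 13 kirre peaks all lay in introns of kirre and spread from 2.92 to 357 kb along the gene. Of them 6 lay before and 7 after the nested gene rst, which spans 210 to 233 kb and held none. The strongest, chrX:2744114-2744365, ranked 241, with 265, 301 and 186 in the replicates (251 ± 58.8, SD, n = 3), but its summit lay 166 bp from the TSS of Syx4. The second, chrX:3097101-3097318, ranked 420, with 522, 531 and 354 (469 ± 99.7), and lay 2327 bp upstream of an internal TSS of kirre, the nearest TSS of any protein-coding gene. A pair at chrX:2786654-2786891 and chrX:2787276-2787460, ranks 678 and 866, lay inside CG32795, and the weaker of the pair holds the ACACTG shown above. The other 9 ranked 1687 to 3898.

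Of the 13, 9 were supported in all 3 replicates, which required an entry at most 100 bp from the summit that was one of the 4261 strongest of each, 1 was in 2 and 3 were in 1. For 8 of the 13 a TSS of another gene was nearer than any of kirre, and 3 lay within 500 bp of one, 2 near Syx4 and 1 at CG3588. Leaving those 3 out, 10 kirre peaks were farther than 500 bp from any other coding TSS. The promoters of kirre had no thresholded peak, and the best pooled promoter entry ranked 5771.

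**Figure D3:**
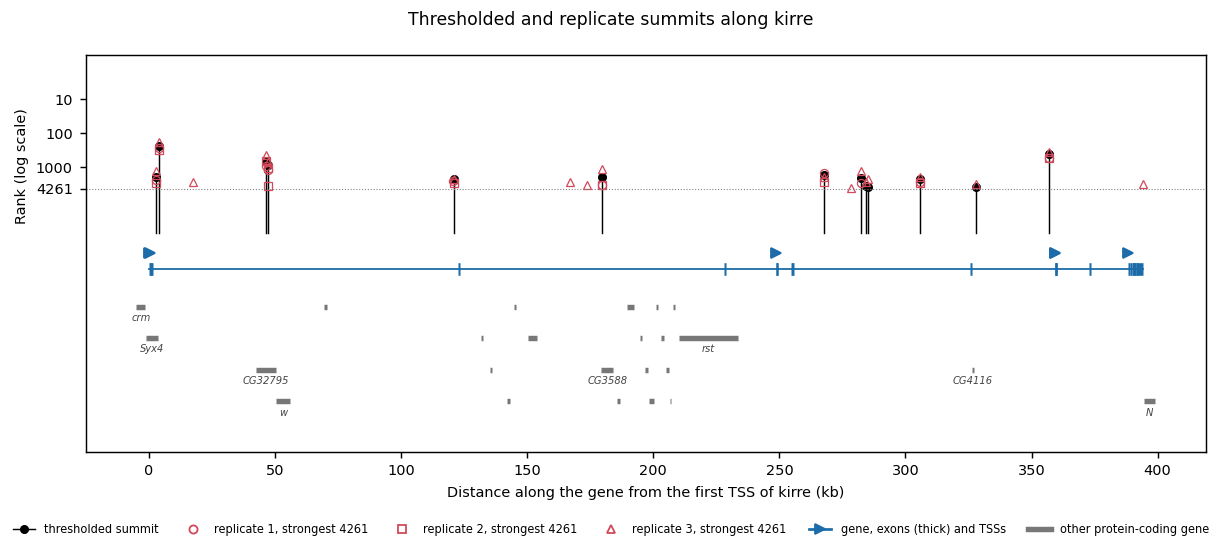
Map of kirre with distance from its first TSS in kb across and rank on a log scale up the page. Black stems are thresholded summits, red symbols are summits among the strongest 4261 entries of each replicate, the blue line with blocks and arrows shows the gene, its exons and TSSs, and grey bars are other protein-coding genes (some named). The 13 summits lie on both sides of rst and none within it, and the 2 strongest stand near the ends of the gene.

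The other fusion genes fell short of the threshold. The best pooled entry of hbs was in its body at rank 4996, with 6999, 6135 and 3935 in the replicates. That of rst was at its promoter at rank 5107, with 4565 and 6138 in replicates 1 and 2 and no entry within 100 bp in replicate 3. For sns it was at the promoter at rank 7100, with 6372 and 8185 in replicates 1 and 2 and none within 100 bp in replicate 3. The 2 promoter entries thus lacked a counterpart within 100 bp in replicate 3, as those of mys and mew did. Elsewhere in their promoter windows, replicate 3 still had entries for sns (rank 9509) and mew (best rank 14788). The body entry of hbs was highest in replicate 3.

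The gene how encodes a STAR-family RNA-binding protein needed for muscle and tendon maturation. It had 2 body peaks and no promoter peak, since its best promoter entry in the pooled list ranked 15813. The first, chr3R:22049188-22049391 in intron 2, lay 7097 bp downstream of the TSS and ranked 845, with 750, 1298 and 933 in the replicates (994 ± 279, SD, n = 3). The second, chr3R:22067397-22067490 in intron 3, ranked 1962, with 2281 and 4226 in replicates 2 and 3 and no entry within 100 bp in replicate 1. It is the one among the 29 body peaks without an entry in every replicate.

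Of the transcription factors, Mef2, the factor that drives differentiation of all muscles, had 6 body peaks, more than any other member but kirre, and 23 protein-coding genes had more. The strongest, chr2R:9949082-9949333 in intron 1, ranked 517, with 424, 646 and 613 in the replicates (561 ± 119.8, SD, n = 3). The peak at chr2R:9942784-9943153, in an untranslated exon, ranked 1937, with 2089, 2488 and 1830 (2136 ± 331). These 2 were supported in all 3 replicates. The peak at chr2R:9955346-9955715 ranked 1526 but moved widely, with 927, 1774 and 6203 (2968 ± 2833). The remaining 3 ranked 3568, 3703 and 3834.

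At its 5′ end Mef2 stood beside a peak that was nearer to other genes. A peak at rank 29, chr2R:9959738-9960106, ranked 27, 39 and 24 in the replicates (30.0 ± 7.94, SD, n = 3). It lay 1057 bp upstream of the first TSS of Mef2, outside the 500 bp window, and 163 bp from the TSS of Pal1. Pdrg1, on the same strand as Mef2, spans -0.874 to -0.261 kb from that Mef2 TSS, so the peak also stood just upstream of Pdrg1. Which of these genes the peak belongs to was not tested. The Mef2 promoters themselves had a best pooled entry at rank 4601, just past the threshold, with 2948, 8951 and 10454 in the replicates. No other thresholded peak within 5 kb of a muscle gene ranked as high as the rank 29 peak.

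**Figure D4:**
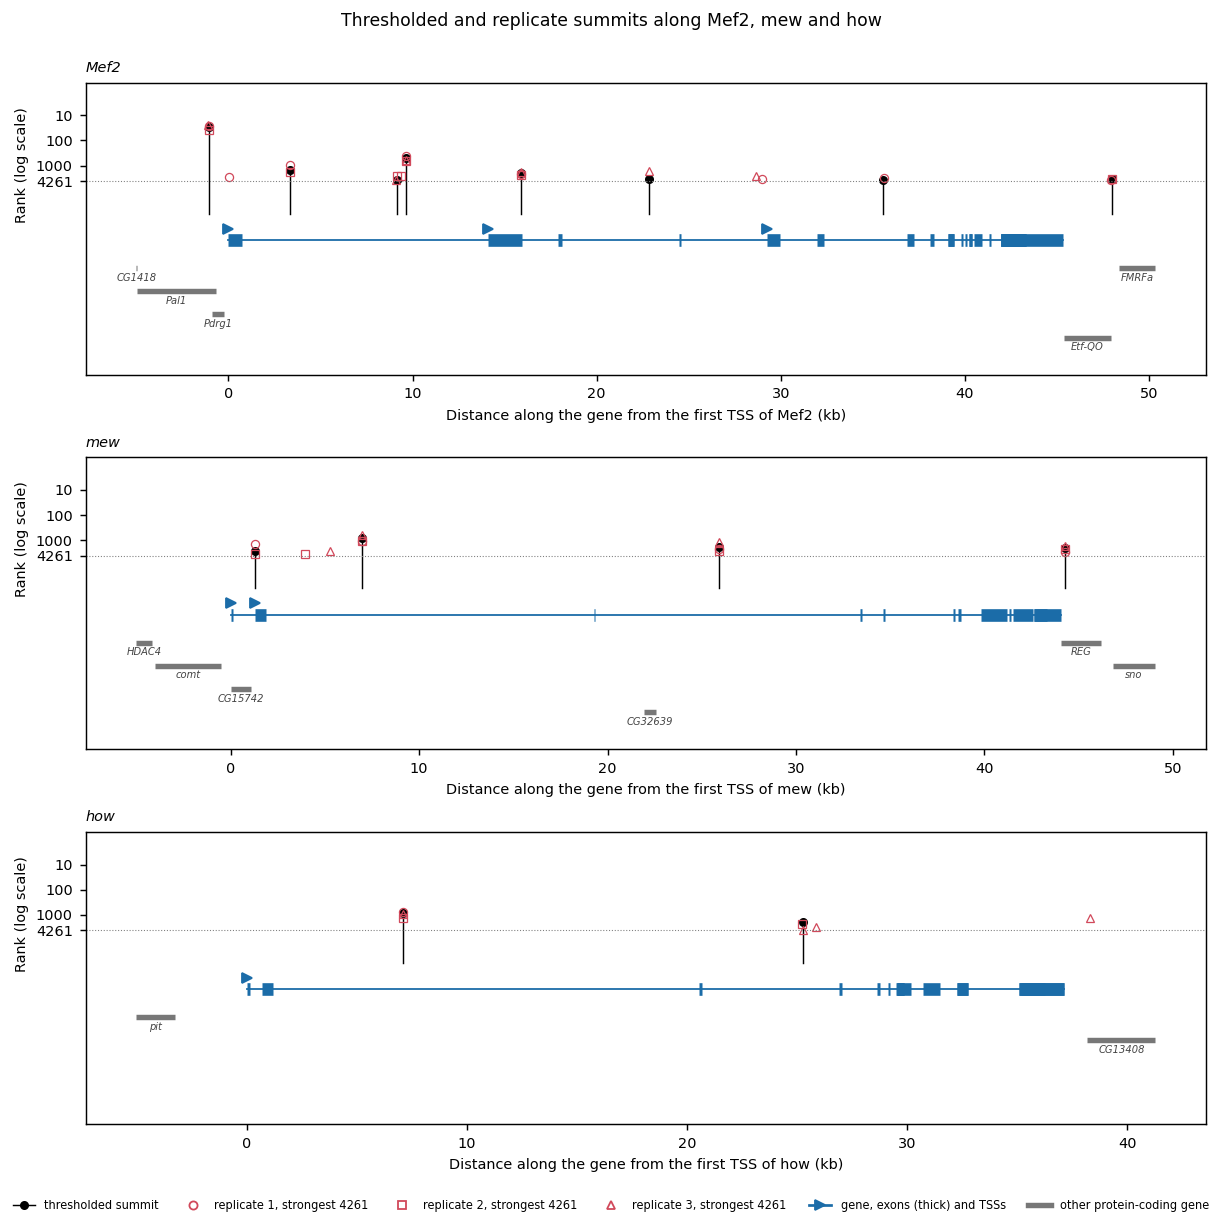
Maps of Mef2 (top), mew (middle) and how (bottom), each with distance along the gene from its first TSS in kb across and rank on a log scale up the page. Black stems are thresholded summits, red symbols are summits among the strongest 4261 entries of each replicate, blue shows the gene with exons and TSSs, and grey bars are other protein-coding genes. The stem left of Mef2 is the rank 29 peak near Pal1 and Pdrg1, and the strongest summits inside Mef2, mew and how rank 517, 789 and 845.

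The transcription factors tin and lbe had the 2 promoter peaks of their role. The homeodomain factor tinman, encoded by tin, specifies heart and dorsal mesoderm. Its peak, chr3R:21378633-21379002, lay 159 bp upstream of the TSS and ranked 1409, with 2347 in replicate 1 and 1205 in replicate 3, while replicate 2 had no entry at the gene at all. The homeodomain factor of lbe acts in heart and muscle founder cells. Its peak, chr3R:21446344-21446713, lay 8 bp downstream of the TSS and ranked 3996, with 5028, 4449 and 5300 (4926 ± 435, SD, n = 3). The lbe ranks were close together and all below the strongest 4261, so it was the 1 of the 37 peaks with support in no replicate.

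Both genes belong to a cluster of NK-type homeobox genes on arm 3R, from tin and bap through lbl, lbe and C15 to slou. Over the 182 kb from tin to slou lay 6 thresholded summits and 28 pooled ones. The strongest, chr3R:21520234-21520486, ranked 86 (153, 37 and 104 in the replicates) and lay 581 bp from the TSS of sp3. Another, rank 3587, lay 293 bp from the TSS of C15. No list held an entry at bap, and lbl had its best pooled entry in its body at rank 5570, with 20464, 6332 and 2849 in the replicates. Within the cluster, promoter peaks were therefore found at tin, lbe and C15.

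The bHLH factor twist, encoded by twi, starts mesoderm formation. Its annotated transcripts span 62952 bp, and 2 body peaks lay in intron 2 of the longest. The peak at chr2R:23042957-23043326 ranked 3089, with 1648, 3826 and 13427 in the replicates (6300.3 ± 6267, SD, n = 3), and lay 199 bp from the TSS of CG42741. The peak at chr2R:23003024-23003393 ranked 4017, with 8672, 4150 and 3103 (5308 ± 2959.7), and lay 4325 bp from the TSS of CG9896. Both were nearer to another gene's TSS than to one of twi, and the replicates placed them far apart.

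The other 12 transcription factors had no thresholded peak. The strongest was sr, which encodes stripe, the factor of tendon cells that muscles attach to. Its best pooled entry, in the body, ranked 4489 (9820, 3943 and 5582 in the replicates). Among all muscle gene entries the last inside the threshold was the second promoter peak of if at 4031, and the first outside it were body entries of kirre at 4338 and Zasp52 at 4395. After lbl, nau, which encodes the fly counterpart of MyoD, came next with a body entry at 8175 (8980, 10880 and 10026). The genes bap, ap, Kr, Him, Hand and pnr had no pooled entry, and bap, Him and Hand, factors of visceral mesoderm, muscle precursors and heart, had none in any list. lmd and slou had a thresholded peak 2008 bp and 4313 bp upstream, ranks 2321 and 2481, with their own TSS nearest. The transcription factors thus divided into a few genes with peaks and a larger number with weak entries or none.

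Over the 30 muscle genes without a thresholded peak, 20 had a pooled entry, with a best rank of 4489, a median of 10012 and a worst of 27941. From their TSSs the nearest thresholded summit lay between 695 and 325388 bp away, with a median of 12916.5 bp, and 8 genes had one within 5 kb. The gene with the greatest distance was ap.

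By place, promoter peaks ranked lower, with a median rank of 3398 and 6 of 8 past rank 2130 of the thresholded list, against a median rank of 2083 for body peaks. Only the sls promoter peak was supported in all 3 replicates (1 of 8), beside 16 of 29 body peaks (55.2%). In kirre alone lay 13 of these 29 body peaks and 9 of the 16 supported ones. Of the 8 promoter summits, 5 lay upstream and 3 downstream of the TSS, from 3 to 265 bp away, and 4 (at if, mew, mys and tin) lacked an entry in 1 replicate. Of the 29 body summits, 28 lay in introns of the muscle gene itself, 1 in an untranslated exon of it and none in its coding sequence. Some also lay inside another gene, whose exons were not checked. Of the 29, 4 lay within 500 bp of the TSS of another protein-coding gene. Over all 37, 17 (45.9%) were supported in all 3 replicates, 12 in 2, 7 in 1 and 1 in none, beside 48.5% of the whole list in all 3.

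**Figure D5:**
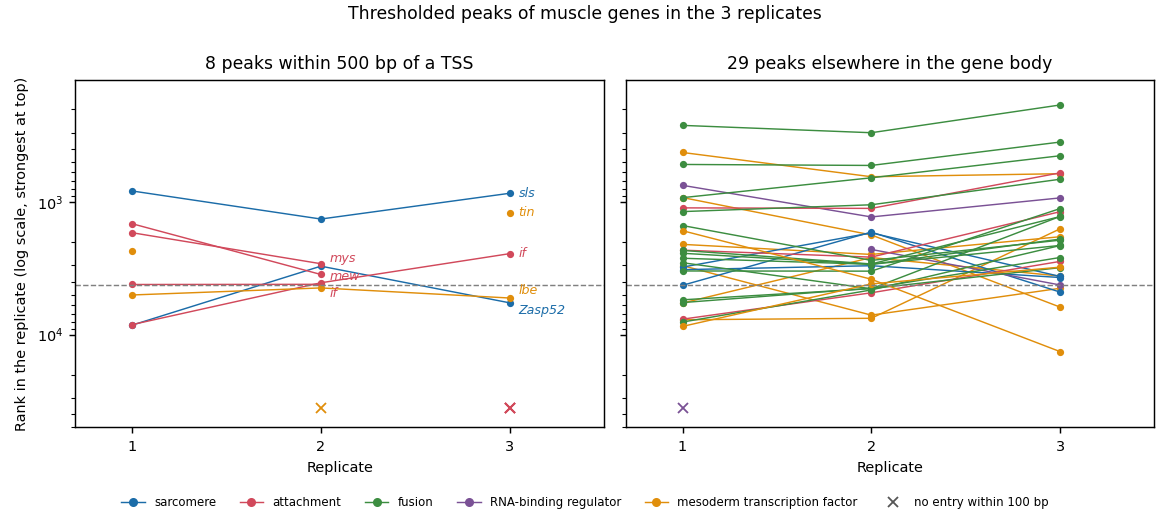
Rank of each thresholded muscle gene peak in replicates 1, 2 and 3, on a log axis with the strongest at the top, for 8 promoter peaks (left, genes named) and 29 body peaks (right). Points are single peaks, lines join 1 peak across replicates, crosses mark a replicate with no entry within 100 bp, colours are roles, and the dashed line is rank 4261. Promoter peaks other than sls lie near or below the line in at least 1 replicate or lack an entry, while 16 body peaks stay above it throughout.

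Other genes of the same processes, listed by role, were counted with the same rules. Of 95 listed, 94 were matched to the annotation, with a median length of 9544.5 bp. Promoter peaks lay at 26 (27.7%), body peaks in 25 (26.6%) and either in 40 (42.6%), beside 13.4%, 8.27% and 18.2% of all genes. The shares were above those of the 43 genes in each place, with no test made and no allowance for length or number of TSSs.

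By role, 7 of 24 further sarcomere genes had a peak in either place, with the best ranks at Fhos (143), an actin-assembling formin, tmod (321), the cap of the thin filament, and Msp300 (560), a giant nesprin. Of 24 attachment genes 13 had one, led by the integrin adhesion proteins Pax (257, paxillin), rhea (697, talin) and Vinc (918, vinculin). Of 14 fusion genes 6 had one, led by the actin regulators mbc (543), Hem (1098) and WASp (1218). Of 32 transcription factors 14 had one, led by CHES-1-like (147, a forkhead factor with 9 body peaks), org-1 (399, a T-box factor) and zfh1 (563). Attachment was the role with the largest share of these further genes, 54.2%, and with the longest genes, at a median of 14451.5 bp. Its share with a body peak was 37.5%, the largest of the roles. At promoters its share was 29.2%, beside 35.7% for fusion genes, 28.1% for transcription factors and 20.8% for sarcomere genes.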

How the data were processed

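Peak lists of CG12071-GFP ChIP-seq from 1 group of 3 replicates were used, with the collection window taken from the source name. Per the labels, sonicated fragments were 200 to 800 bp and the assembly dm6. Per the file records, the authors called peaks and background on each replicate and on pooled alignments against 1 control and applied an IDR threshold. Aligner and peak caller are not given in the sources used here. As deposited, each score is a signal value from the authors' peak calling without a stated scale, used only to rank within 1 list. The deposited −log10 q-value was used only to count entries at 0.05 or less. Read depth is unknown, the 30000 entries of a list are a fixed length, and Wilson intervals cover counting error only.

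Gene models were those of Ensembl release 115 (BDGP6.54), with 19607 TSSs of 13945 protein-coding genes, in the coordinates of dm6. Every gene whose window or body held a summit was given the peak. Replicate ranks are of the nearest entry within 100 bp, and mean ± SD is given only where all 3 replicates had one. The members, the lists and the motifs were chosen with earlier results of these data known, and GTAAACA, AATATTTG and ACACTG after runs of letters in all thresholded peaks had been counted. All 43 members are accounted for. Those with a thresholded peak are given in full, and those without by the 3 best of each role and by ranges. Of the 95 other muscle genes 94 were matched, 3 by a synonym. Counts stand beside the share of all genes with no test. Alternatives were windows of 250 and 1000 bp, 1 TSS per gene, the nearest TSS only, interval overlap, gene bodies with 2000 bp added, the strongest 2130 thresholded peaks, support in all 3 replicates, pooled entries by q-value, leaving out each replicate, matching distances of 50 and 200 bp, and motif windows of 25 and 100 bp. Leaving out body peaks within 500 bp of another gene's TSS was added after the data had been seen. Computations used pandas 2.3.3, NumPy 2.4.6, SciPy 1.17.1 and matplotlib 3.10.9 under Python 3.11.15, and the assignment of peaks was tested on simulated data.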

Additional observations from a re-analysis of the deposited data

How the results depend on the processing

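Of 7 muscle genes with a promoter peak (16.3%, beside 13.4% of all genes), 2 were left with the strongest 2130 thresholded peaks (4.65%, beside 7.54%). Peaks supported in all 3 replicates left 1 (2.33%, beside 6.52%), and leaving out each replicate left 2 to 4. All of these shares were below the background, that without replicate 3 only slightly (9.30%, beside 9.59%). Pooled entries with a q-value of 0.05 or less gave 17 (39.5%, beside 24.0%). The difference of structural genes minus transcription factors, 6.73 points at promoters, was -0.9615 points with 1 TSS per gene, -2.404 with those 2130 peaks, 25 with the pooled entries and -2.404 to 15.38 on leaving out a replicate, lowest without replicate 2. Genes with a body peak, 9 (20.9%, beside 8.27%), became 4 with those 2130 peaks (9.30%, beside 5.03%), 15 with the pooled entries (34.9%, beside 13.6%) and 6 to 8 on leaving out a replicate (14.0 to 18.6%, beside 5.72 to 6.32%). The body difference, 10.58 points, was 1.442 with those 2130 peaks, 3.365 with the pooled entries, 25.96 with 2 kb added on either side and 2.885 to 9.135 on leaving out a replicate. The mean of 5.67 promoter calls per replicate was 0.667 over the strongest 1000 entries and 4.5 to 7 without 1 replicate. By q-value it was 14.67, from 22, 19 and 3 calls in replicates 1, 2 and 3. Within 25 bp of the summit, CANNTG lay in 9 peaks (24.3%, beside 23.2% of all peaks), GAGAG in 1 (2.70%, beside 7.60%), GATAAG in 1 (beside 3.54%), AATATTTG in 1 (beside 2.32%) and ACACTG in 1 (beside 3.33%). Within 100 bp, GATAAG lay in 4 (10.8%, beside 13.5%), TATTTATA in 1 (2.70%, beside 5.09%), CAAGTG in 5 (13.5%, beside 12.8%), CACACA in 9 (24.3%, beside 22.5%) and ACACTG in 11 (29.7%, beside 16.9%). The causes were not tested.

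The other alternatives moved none of these results beyond 1.5 times a count or 1 SD of a difference. No paired analysis was possible because there was 1 group. A replicate that was left out had still helped to make the thresholded list. With 43 genes, 1 gene is 2.33% of the list.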
